A study of Mus musculus with 8 samples.

Results

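The imprinted growth genes examined here were H19, Igf2r, Cdkn1c, Dlk1, Meg3, Rian, Peg3, Plagl1, Mest and Grb10, 10 genes chosen by name and read from the RNA-seq of newborn mouse hearts. Symbols were matched without regard to case, and the locus with the highest mean was taken where several loci carried a symbol. A locus was found for 9 of the 10 genes among 80155 loci, of which 39614 carried a gene symbol (annotated) and 40541 carried none (unannotated). No locus was named Rian. The locus AC152063.2,SNORD113 (chromosome 12 of GRCm38, 109603945 to 109664142) lies over the Rian gene of GENCODE M21 on the same strand, and it is described by that position as the locus over Rian without being counted as 1 of the 9.

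The samples were whole hearts of male Hsd:ICR(CD-1) mice, an outbred stock, without the atrial appendages, 4 at postnatal day 1 (P1) and 4 at postnatal day 7 (P7). Each heart was 1 mouse and 1 library, the labels name no transgene or treatment, and age was the only difference the labels give. The RNA was depleted of ribosomal RNA and sequenced with a strand-specific kit. The unit deposited by the authors is FPKM, which scales the fragments of a locus to its length in kilobases and to the size of the library. FPKM adds up the RNA of both parental alleles, so no value here is specific to an allele. In a whole heart, fewer cells of a type and less RNA per cell cannot be told apart.

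Imprinted genes are expressed mainly from a single parental allele, under marks of DNA methylation laid down in the germ line. Many act on growth before and after birth: as background, paternally expressed genes such as Igf2 and Dlk1 tend to promote growth and maternally expressed genes such as H19, Igf2r, Cdkn1c and Grb10 tend to restrain it. Many of them lie in clusters that share a control region, among them the Igf2-H19 cluster and the Dlk1-Dio3 cluster, and many fall after birth in several organs.

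Several of these loci are also hosts of microRNAs, and their mature sequences are shown because the deposited locus names join them to H19 and Meg3. The sequences are from RefSeq (GRCm38.p6), and capitals mark the seed, bases 2 to 8. The 5 seeds were all different. The libraries measured the host RNA, not the mature microRNAs.
miR-675-5p, host H19: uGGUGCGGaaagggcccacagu
miR-675-3p, host H19: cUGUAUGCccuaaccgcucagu
miR-770-5p, host Meg3: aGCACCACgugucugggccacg
miR-770-3p, host Meg3: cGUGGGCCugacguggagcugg
miR-1906, host Meg3: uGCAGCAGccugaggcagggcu

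The 250 bases before the start of a gene are shown for the 3 genes of the Dlk1-Dio3 cluster on which the results turn, and for Mest, whose window held the most copies of the motif searched for. The motif was TGCCGC, also read on the other strand as GCGGCA, the letters that the zinc-finger protein ZFP57 recognises in their methylated form at imprinted control regions. Capitals mark it. RefSeq windows were found for 8 of the 10 members, 12 windows in all. Dlk1 (chr12:109452573-109452822, plus strand) had no match and 8 CpG. The first Meg3 start (chr12:109540746-109540995, plus strand) had 1 match and 10 CpG. Rian (chr12:109603695-109603944, plus strand) had no match and 0 CpG. Mest (chr6:30737800-30738049, plus strand) had 2 matches and 14 CpG. At least 1 match was present in 4 of the 12 windows, those of 3 genes (Mest, Plagl1 and Meg3), of which 2 are Mest windows 3 bases apart that hold the same matches, against 8.68% of all 32851 windows of the same length, and at least 2 matches in 0.874% of all windows. The median window held 6 CpG.
Dlk1: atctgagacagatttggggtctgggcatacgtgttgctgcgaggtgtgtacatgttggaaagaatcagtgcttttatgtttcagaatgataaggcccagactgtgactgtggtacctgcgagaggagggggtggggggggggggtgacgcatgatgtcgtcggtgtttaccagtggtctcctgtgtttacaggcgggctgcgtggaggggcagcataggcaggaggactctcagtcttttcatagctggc
Meg3: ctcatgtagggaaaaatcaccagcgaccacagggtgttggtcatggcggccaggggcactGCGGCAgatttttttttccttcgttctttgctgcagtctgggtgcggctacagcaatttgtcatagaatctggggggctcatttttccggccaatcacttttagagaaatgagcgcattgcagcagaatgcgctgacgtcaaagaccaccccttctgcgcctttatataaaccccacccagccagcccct
Rian: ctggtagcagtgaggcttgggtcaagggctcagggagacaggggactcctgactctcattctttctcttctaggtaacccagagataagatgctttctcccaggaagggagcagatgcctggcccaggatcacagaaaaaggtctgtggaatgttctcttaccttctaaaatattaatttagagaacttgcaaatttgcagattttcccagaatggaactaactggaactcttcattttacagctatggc
Mest: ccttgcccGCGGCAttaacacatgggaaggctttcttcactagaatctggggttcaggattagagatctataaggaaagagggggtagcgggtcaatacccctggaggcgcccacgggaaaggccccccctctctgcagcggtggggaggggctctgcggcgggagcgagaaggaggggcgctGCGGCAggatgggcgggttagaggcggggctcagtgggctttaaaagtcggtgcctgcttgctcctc

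Across the 8 hearts the 9 genes covered a wide range of levels in FPKM, which is per length. H19 was far above the rest, with a mean of 1626 FPKM over all hearts and rank 37 of the 17960 annotated loci tested. Grb10 followed with a mean of 141, then Mest with 80.1, Plagl1 with 78.2 and Igf2r with 71.4, 3 genes whose hearts overlapped. Cdkn1c, Peg3 and Meg3 had means of 32.7, 32.7 and 31.1 and also overlapped. Dlk1 was the lowest, with a mean of 6.19, and its highest heart (12.2) lay below the lowest heart of every other member (19.4 for Cdkn1c in P1 replicate 3).

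From P1 to P7, Dlk1 was the only one of the 9 genes that changed by the test used, and its mean FPKM fell by 72.3%. The 43172 loci that reached 1 FPKM in any heart were tested with limma on log2(FPKM + 1), and a DEG had a Benjamini-Hochberg adjusted p under 0.05 over all of them together with stage means that differed 1.5-fold or more. By that rule 1 of the 9 genes was a DEG, lower in P7. Among all tested annotated loci 8.14% were DEG either way, 7.74% higher and 0.401% lower in P7. The share of lower calls depended on the scaling, at 3.47% with median-ratio scaling and 3.31% with quantile normalization. The log2 fold change was negative in 7 of the 9 and positive in 2, with a median of -0.14, beside a median of 0.19 and 67.6% positive values over all annotated loci. The hearts of the stages did not overlap in 3 of the 9 genes (20% of annotated loci), with P7 above in 1 (17.3%) and below in 2 (2.69%). Log2 fold changes on this scale understate the change of low values such as those of Dlk1.

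**Figure D1:**
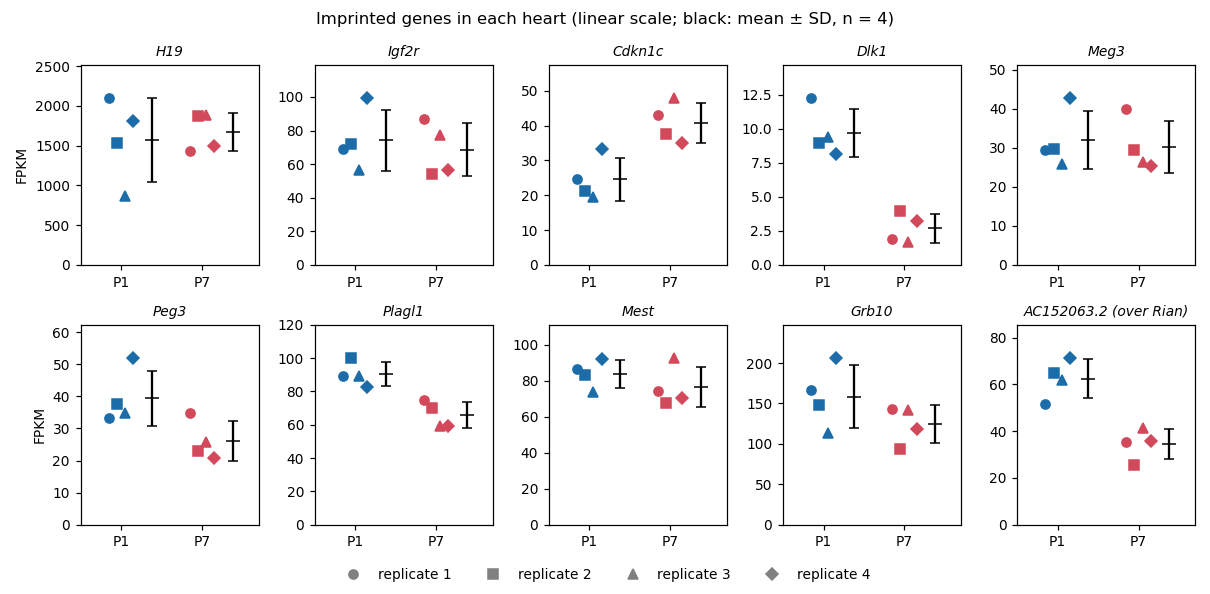
FPKM of 9 imprinted genes and of the locus over Rian in each heart, on linear axes from 0, for P1 (blue) and P7 (red), with the replicate number as the marker and the mean ± SD (n = 4) in black. The stages do not overlap for Dlk1, Plagl1 and the locus over Rian, which are lower in P7, and for Cdkn1c, which is higher in P7.

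Dlk1 (chromosome 12, 109452823 to 109463336, plus strand) encodes a transmembrane protein of the Delta family that promotes prenatal growth and holds precursor cells back from differentiation. Its FPKM in the P1 hearts was 12.2, 8.94, 9.41 and 8.16 in replicates 1 to 4, and in the P7 hearts it was 1.88, 3.96, 1.71 and 3.19. Every P7 heart was below every P1 heart, and the lowest P1 heart was above the highest P7 heart with FPKM of 8.16 against 3.96. Stage means were 9.69 ± 1.78 at P1 and 2.69 ± 1.08 at P7 (SD, n = 4 each), so that the P1 mean was 3.60 times the P7 mean. The log2 fold change was -1.57 (SE 0.23, 95% interval -2.06 to -1.07, limma adjusted p = 0.00694), the 70th lowest of the 17960 annotated loci. With 1 heart left out at a time it lay between -1.73 and -1.44, and Dlk1 was called in all 8 of these fits (limma adjusted p from 0.00526 to 0.0301). About 512 to 1214 fragments stood behind each P1 value and 121 to 315 behind each P7 value, estimated from the smallest steps between low FPKM values.

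Dlk1 is also a gene of fetal liver, and RNA of liver genes was present in part of the P1 hearts. The summed FPKM of the 4 liver markers (Alb, Afp, Apoa1 and Ttr, all found, none a DEG) was 51.7 in P1 replicate 1 and 31.1 in P1 replicate 3, against 0.982 and 1.48 in P1 replicates 2 and 4 and 1.33 to 9.26 in the P7 hearts. Dlk1 FPKM was 12.2 and 9.41 in the P1 hearts with the high sums, 8.94 and 8.16 in the other P1 hearts and at most 3.96 in the P7 hearts. Without P1 replicates 1 and 3, an alternative added after seeing the data, the log2 fold change of Dlk1 was -1.42 and the call was lost (limma adjusted p = 0.0858). That comparison of 2 hearts with 4 called 37 annotated loci in all, against 1462 with all hearts. The part of liver RNA in the fall of Dlk1 was not tested.

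Dlk1 is also known from fat precursor cells, and a brown fat gene was present in part of the P7 hearts. Ucp1, the uncoupling protein of brown fat, was at 3.08 FPKM in P7 replicate 2 and 10.3 in P7 replicate 4, and between 0 and 0.147 in the other 6 hearts. Those are the P7 hearts with the higher Dlk1 values, 3.96 and 3.19 against 1.88 and 1.71. The 3 brown fat markers (Ucp1, Cidea and Cpt1b) summed to 93.0 to 197 FPKM at P1 and 214 to 293 at P7, mostly from Cpt1b, which heart muscle also expresses, and 1 of them, Cidea, was a DEG and higher. The part of brown fat RNA in the Dlk1 values was not tested.

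Meg3 (chromosome 12, 109541001 to 109571726, plus strand), the maternally expressed long noncoding RNA next to Dlk1, did not follow it. Its FPKM was 29.5, 29.7, 25.8 and 42.7 in the P1 hearts and 39.9, 29.5, 26.3 and 25.2 in the P7 hearts. The stages overlapped, with P1 replicate 4 and P7 replicate 1 highest. The P1 mean was 31.9 ± 7.4 and the P7 mean 30.2 ± 6.7 (SD, n = 4 each), and the log2 fold change was -0.07 (95% interval -0.54 to 0.39, limma adjusted p = 0.847), which was positive without P1 replicate 4 (0.07) and without P7 replicate 4 (0.0018).

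The locus over Rian, the maternally expressed host of box C/D small nucleolar RNAs further along the same strand, was lower in P7. Its FPKM was 51.4, 65.1, 61.8 and 71.3 in the P1 hearts and 35.5, 25.8, 41.4 and 35.6 in the P7 hearts. No P7 heart reached the lowest P1 heart. Mean FPKM was 62.4 ± 8.3 at P1 and 34.6 ± 6.5 at P7 (SD, n = 4 each), and the log2 fold change was -0.84 (SE 0.20, limma adjusted p = 0.0376). With a single heart left out the log2 fold change stayed between -0.93 and -0.71, but the adjusted p passed 0.05 in 7 of the 8 fits and the call remained only without P1 replicate 4. The call also ended with eBayes without trend (limma adjusted p = 0.0553), with the replicate block (0.0755), with no filter (0.0862) and without P1 replicates 1 and 3 (0.143). It ended in the GC correction setting too (limma adjusted p = 0.0593). The locus has no GC value, so that correction left its values unchanged and acted only through other loci.

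Most other loci between Dlk1 and Dio3 had a negative log2 fold change, but few passed the test. Of 31 tested loci, 20 annotated and 11 unannotated, 30 had a negative log2 fold change, beside 56.5% of all tested loci (32.4% of annotated and 73.7% of unannotated ones). In 16 of the 31 every P7 heart was below every P1 heart, beside 4.03% of all tested loci, and 7 were DEG, all lower in P7, beside 0.371% of all tested loci. On the plus strand after Meg3, the strand of Rian and of the microRNA host transcripts, 25 loci were tested, and 23 of them had FPKM above 0 in every heart. The 23 all had negative log2 fold changes, from -0.89 to -0.11 with a median of -0.50, and in 15 of them the stages did not overlap. Several of the 31 loci, the DEG Mir433 and some of the 23 among them, reached 1 FPKM only in P1 hearts, and Mir1193 only in a P7 heart. For these the filter favoured the sign that was found. Neighbouring loci can hold pieces of the same transcripts, so they are not independent measurements. The number of calls depended on which heart was left out: it was 7 without P1 replicate 4 and 1 in each of the other 7 fits with a heart left out.

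The DEG of the cluster, besides Dlk1, the locus over Rian and Mir433, had low FPKM. The unannotated loci XLOC_015158 and XLOC_015159, inside the gene model Gm37899, fell from 4.32 ± 0.61 to 2.11 ± 0.52 and from 2.83 ± 0.88 to 1.16 ± 0.13 FPKM (SD, n = 4 each). The locus Mir882,SNORD113 fell from 3.09 ± 0.94 to 1.25 ± 0.30, and a locus named SNORD113 alone fell from 3.27 ± 0.28 to 1.52 ± 0.40 (SD, n = 4 each). SNORD113 is a family of near-identical small nucleolar RNAs, so the assignment of reads among its copies is uncertain. The Mir433 locus was listed at 15.2, 20.9, 17.1 and 0 in the P1 hearts and at 0 in all 4 P7 hearts, and a value at a microRNA hairpin can rest on very few fragments. The locus named for Mir379, Mir411 and SNORD113 had means of 8.08 and 3.53 FPKM with no overlap between stages, and did not pass the test (limma adjusted p = 0.102). The 1 positive value, at Mir1193, came from a single P7 heart, and mmu-mir-380 and mmu-mir-376a on the minus strand each had a value in a single P1 heart. Rtl1, the paternally expressed retrotransposon-derived gene of the minus strand, had means of 2.65 ± 0.45 and 1.76 ± 0.22 (SD, n = 4 each; limma adjusted p = 0.256).

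**Figure D2:**
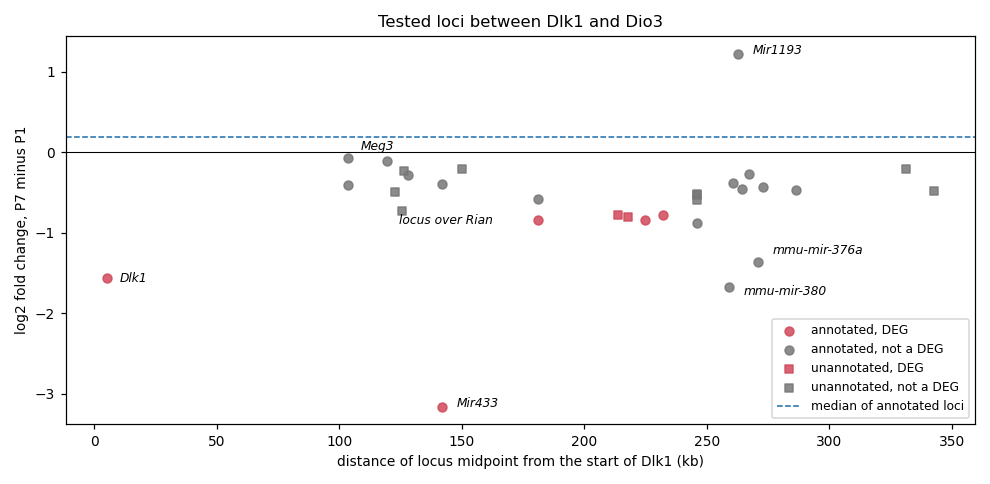
Log2 fold change (P7 minus P1, on log2(FPKM + 1)) of the 31 tested loci between Dlk1 and Dio3 against the distance of the locus midpoint from the start of Dlk1 in kb; circles are annotated and squares unannotated loci, red marks the 7 DEG and the dashed line the median of all annotated loci (0.19). All loci but Mir1193 lie below 0, with Meg3 the closest to it.

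The ratio of Meg3 to Dlk1 within a heart, which does not depend on the scaling of the hearts, was 2.41, 3.32, 2.75 and 5.23 in the P1 hearts and 21.2, 7.44, 15.3 and 7.91 in the P7 hearts. The stages did not overlap. The geometric means were 3.27 and 11.8, a rise of 3.59 times (two-sided exact permutation test with n = 4 each, p = 0.0286, the minimum for this design; adjusted over the 4 ratios, p = 0.0571). The locus over Rian took the place of Rian in a ratio to Meg3 after the data were seen, so its p is not on a par with the others; over the other 3 ratios alone the adjusted p of Meg3 to Dlk1 by the exact permutation test was 0.0857. The ratio of the locus over Rian to Meg3 was 1.74, 2.20, 2.39 and 1.67 in the P1 hearts and 0.890, 0.874, 1.57 and 1.41 in the P7 hearts, again without overlap. Its geometric mean went from 1.98 to 1.15, a factor of 0.580 (two-sided exact permutation test, p = 0.0286; adjusted p = 0.0571). Neither ratio passed 0.05 after adjustment, which this design could not reach unless 3 of the 4 ratios had the smallest p.

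H19 (chromosome 7, 142575529 to 142578143, minus strand), the long noncoding RNA that shares enhancers with Igf2, stayed among the most abundant annotated RNAs at both stages. Its FPKM was 2098, 1536, 861 and 1811 in the P1 hearts and 1439, 1877, 1884 and 1500 in the P7 hearts. The P7 hearts all lay inside the P1 range, in which P1 replicate 3 was the lowest. The P1 mean was 1576 ± 529 and the P7 mean 1675 ± 239 (SD, n = 4 each), and the log2 fold change was 0.15 (95% interval -0.48 to 0.78, limma adjusted p = 0.761). Its direction was not fixed by the data: it was negative without P1 replicate 3 (-0.11), with median-ratio scaling (-0.09) and with GC correction (-0.18).

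Igf2, the paternally expressed growth factor of the same cluster and not one of the 10 genes, had FPKM of 640, 548, 551 and 445 in the P1 hearts and 425, 356, 426 and 355 in the P7 hearts. The stages did not overlap, though P1 replicate 4 lay close to the highest P7 hearts. Stage means were 546 ± 80 at P1 and 390.3 ± 40.4 at P7 (SD, n = 4 each), and the log2 fold change was -0.48 (limma adjusted p = 0.236). Igf2 was a DEG with quantile normalization (-0.64, limma adjusted p = 0.0394) and in no other setting. With GC correction its log2 fold change was -0.81 (limma adjusted p = 0.0783). The ratio of H19 to Igf2 was 3.28, 2.80, 1.56 and 4.07 in the P1 hearts and 3.39, 5.27, 4.42 and 4.23 in the P7 hearts. P7 replicate 1 lay inside the P1 range. The geometric mean ratio went from 2.77 to 4.28, 1.55 times (two-sided exact permutation test, p = 0.0571; adjusted p = 0.0762).

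Igf2r (chromosome 17, 12682406 to 12769664, minus strand) encodes the receptor that takes up IGF2 and carries it to lysosomes for breakdown. Its FPKM was 68.8, 72.2, 56.2 and 99.2 in the P1 hearts and 86.7, 54.1, 77.4 and 56.6 in the P7 hearts. The stages overlapped over most of their range. Mean FPKM was 74.1 ± 18.1 at P1 and 68.7 ± 15.9 at P7 (SD, n = 4 each), and the log2 fold change was -0.11 (95% interval -0.61 to 0.39, limma adjusted p = 0.791), which was 0.04 without P1 replicate 4. The ratio of Igf2r to Igf2 was 0.102 to 0.223 at P1 and 0.152 to 0.204 at P7, with geometric means of 0.134 and 0.173 (two-sided exact permutation test, p = 0.229; adjusted p = 0.229).

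The symbol Igf2r was carried by 20 loci. The loci of each chromosome are listed in the files in 2 runs that match the plus and the minus strand of GENCODE for over 99% of the single-symbol loci, which gives the strand of a locus. Only the locus used above lay in the minus run, the strand of Igf2r. The other 19 lay in the plus run, the strand of Airn, the paternally expressed antisense RNA that overlaps Igf2r, and each had a single start site. Their mean FPKM ran from 9.47 to 35.7, their log2 fold changes from -0.20 to 0.51, and none was a DEG. Airn itself had means of 68.0 ± 12.0 and 59.9 ± 11.5 FPKM (SD, n = 4 each; log2 fold change -0.18, limma adjusted p = 0.595). The rule of the highest mean took the locus on the Igf2r strand.

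Cdkn1c (chromosome 7, 143458339 to 143461050, minus strand) encodes a cyclin-dependent kinase inhibitor that stops cells from entering the cycle, and it had the highest log2 fold change of the 9 genes. Its FPKM was 24.6, 21.1, 19.4 and 33.3 in the P1 hearts and 43.0, 37.6, 47.8 and 35.0 in the P7 hearts. All P7 hearts exceeded all P1 hearts, by a narrow margin over P1 replicate 4. Stage means were 24.6 ± 6.2 at P1 and 40.9 ± 5.7 at P7 (SD, n = 4 each), a ratio of 1.66 and a log2 fold change of 0.73 (SE 0.21, 95% interval 0.28 to 1.18). The adjusted p missed the threshold (limma adjusted p = 0.0750). Cdkn1c was a DEG without P1 replicate 4, with sample quality weights and with the filter of at least 1 FPKM in every heart, and its log2 fold change was 0.28 after GC correction (limma adjusted p = 0.463). Median-ratio scaling (0.49, limma adjusted p = 0.0280) and quantile normalization (0.47, limma adjusted p = 0.0370) passed on adjusted p but not on the 1.5-fold threshold.

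A short unannotated locus lay 481 bases upstream of the Cdkn1c start on the opposite strand (chromosome 7, 143461531 to 143461955, XLOC_065074). Its FPKM was 0.675, 0.502, 0 and 0.299 in the P1 hearts and 2.67, 2.25, 2.68 and 1.11 in the P7 hearts, without overlap. It was a DEG, higher in P7, with a log2 fold change of 1.21 (SE 0.24, limma adjusted p = 0.0215), beside 0.397% of unannotated loci called higher. All P1 hearts were below 1 FPKM, so it was tested only through the P7 hearts, and a locus this short and low rests on few fragments. The call was lost in 4 of the 8 fits with a heart left out, those without P1 replicate 2, P1 replicate 3, P7 replicate 1 or P7 replicate 3 (limma adjusted p up to 0.0738). It was also not called with no filter or without P1 replicates 1 and 3 (limma adjusted p up to 0.132). The filter on every heart left it untested. No gene of GENCODE M21 overlaps it on either strand.

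Grb10 (chromosome 11, 11930508 to 12038683, minus strand) encodes an adaptor that binds the insulin and IGF receptors and restrains their signal. Its FPKM was 166, 148, 114 and 206 in the P1 hearts and 144, 93.9, 141 and 119 in the P7 hearts. The stages overlapped. The P1 mean was 158 ± 39 and the P7 mean 124 ± 23 (SD, n = 4 each), and the log2 fold change was -0.33 (95% interval -0.83 to 0.17, limma adjusted p = 0.431). With median-ratio scaling it was -0.58 (limma adjusted p = 0.0304), but the stage means did not differ 1.5-fold. Of 24 unannotated loci tested between Cobl and Ddc around Grb10, 23 had a negative log2 fold change, beside 73.7% of all unannotated loci, and 0 were DEG. Most of the 24 reached 1 FPKM only in P1 hearts. The filter thus favoured a negative sign, and no conclusion is drawn from that count.

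Plagl1 (chromosome 10, 13060504 to 13131694, plus strand) encodes a zinc-finger transcription factor known to act on other imprinted genes. Its FPKM was 89.4, 100.1, 89.4 and 82.8 in the P1 hearts and 75.1, 69.8, 59.5 and 59.5 in the P7 hearts. Every P7 heart was below every P1 heart, and the spread within each stage was the smallest of the 9 genes, with coefficients of variation of 7.92% and 11.8%. Stage means were 90.4 ± 7.2 at P1 and 66.0 ± 7.8 at P7 (SD, n = 4 each), lower by 27.0% in P7. The log2 fold change was -0.45 (SE 0.18, 95% interval -0.84 to -0.07) and did not pass (limma adjusted p = 0.199), in this or in any other setting tried.

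Peg3 (chromosome 7, 6703892 to 6730431, minus strand) encodes a paternally expressed zinc-finger protein. Its FPKM was 33.1, 37.6, 34.8 and 51.9 in the P1 hearts and 34.7, 22.8, 25.9 and 20.7 in the P7 hearts. P7 replicate 1 lay inside the P1 range, and the other P7 hearts lay below it. Mean FPKM was 39.4 ± 8.6 at P1 and 26.0 ± 6.1 at P7 (SD, n = 4 each), and the log2 fold change was -0.58 (SE 0.22, 95% interval -1.05 to -0.11, limma adjusted p = 0.174). Median-ratio scaling (-0.82, limma adjusted p = 0.0140) and quantile normalization (-0.84, limma adjusted p = 0.0172) made it a DEG. These 2 settings moved the median of all annotated loci down by 0.188 and 0.107 on the log2 scale.

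Of the 8 tested loci between Zim1 and Usp29, the cluster of Peg3, 2 were DEG and lower in P7 (0.371% of all tested loci) and 6, Peg3 among them, did not pass. All 8, 2 annotated and 6 unannotated, had negative log2 fold changes, beside 32.4% of annotated and 73.7% of unannotated loci. Of the 6 unannotated loci, only XLOC_062553 reached 1 FPKM in a P7 heart. The others were tested through P1 hearts alone, so the filter favoured their negative sign. Zim1, a maternally expressed zinc-finger gene, had FPKM of 4.03, 4.42, 4.79 and 5.45 in the P1 hearts and 3.10, 1.83, 2.03 and 1.96 in the P7 hearts. It fell by 0.82 on the log2 scale (SE 0.19, limma adjusted p = 0.0345). The call was lost in 7 of the 8 fits with a heart left out, all but that without P1 replicate 4 (limma adjusted p up to 0.104), and in 5 of the 10 other settings. An unannotated locus that starts 159 bases upstream of Peg3 on the opposite strand and overlaps Usp29 in GENCODE (XLOC_062553, chromosome 7) fell from 3.63 ± 0.57 to 1.71 ± 0.44 FPKM (SD, n = 4 each; log2 fold change -0.78, limma adjusted p = 0.0435), and of the fits with a heart left out only that without P1 replicate 4 kept its call.

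Mest (chromosome 6, 30723547 to 30748465, plus strand) encodes an enzyme of the alpha/beta hydrolase fold. Its FPKM was 86.7, 83.4, 73.6 and 92.0 in the P1 hearts and 74.4, 67.7, 92.6 and 70.5 in the P7 hearts. The highest heart of all was a P7 heart, and the other P7 hearts were low. The P1 mean was 83.9 ± 7.7 and the P7 mean 76.3 ± 11.2 (SD, n = 4 each), and the log2 fold change was -0.14 (95% interval -0.54 to 0.26, limma adjusted p = 0.650).

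**Figure D3:**
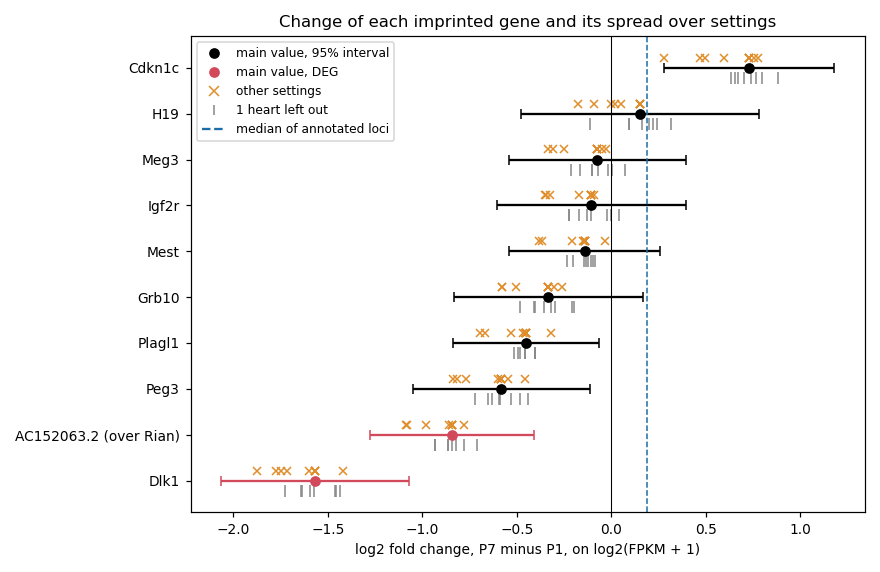
Log2 fold change (P7 minus P1, on log2(FPKM + 1)) of 9 imprinted genes and the locus over Rian with the 95% interval from limma (red: DEG), the values with 1 heart left out (grey ticks) and under the other settings (orange crosses), beside the median of annotated loci (dashed, 0.19). Dlk1 lies between -1.88 and -1.42 in every setting, while the values of H19, Meg3 and Igf2r fall on both sides of 0.

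Grouped by the allele known to be expressed, the 4 paternally expressed genes (Dlk1, Peg3, Plagl1 and Mest) all had negative log2 fold changes, with a median of -0.52, and 1 was a DEG. Of the 5 maternally expressed genes (H19, Igf2r, Cdkn1c, Meg3 and Grb10), 2 were positive and 3 negative, with a median of -0.07, and 0 were DEG by limma, though 1 of them (Cdkn1c) was called in some of the other settings. Over all tested annotated loci 32.4% had a negative log2 fold change, 8.14% were DEG and the median was 0.19. The groups were not tested against each other.

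Among other imprinted genes, 56 were listed and 51 loci were found, Snrpn and Snurf sharing one of them. Their parental class was taken from general knowledge and not measured in these hearts. Several of them are imprinted only in placenta or brain. Of the 36 tested, 3 were DEG: H13 and Dcn were higher and Zim1 was lower in P7, a share to be read beside the 8.14% of all annotated loci. With 1 heart left out at a time, the H13 and Zim1 calls were lost in 7 of the 8 fits and the Dcn call in 6 (limma adjusted p up to 0.109, 0.104 and 0.0996); all 3 were called without P1 replicate 4, and Dcn also without P7 replicate 2. In 6 the P7 hearts all lay above the P1 hearts (Ndn, Sgce, Cd81, Pon2, H13 and Dcn), close to the share of 17.3% over annotated loci. In 4 every P7 heart was below (Igf2, Peg10, Slc38a4 and Zim1), beside 2.69%. The 17 paternally expressed genes had a median log2 fold change of -0.16 with 0 DEG, and the 19 maternally expressed genes a median of 0.44 with 3 DEG, beside 0.19 over all annotated loci.

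H13, a signal peptide peptidase, went from 21.2 ± 3.8 to 39.1 ± 3.3 FPKM (SD, n = 4 each), with a log2 fold change of 0.86 (SE 0.18, limma adjusted p = 0.0261). Dcn, the matrix proteoglycan decorin, went from 130.0 ± 48.7 to 283.6 ± 33.5 FPKM (SD, n = 4 each), with a log2 fold change of 1.18 (SE 0.25, limma adjusted p = 0.0255). Dcn is imprinted in placenta and is also 1 of the 8 fibroblast markers used, whose summed FPKM was 859 to 1760 at P1 and 1851 to 2338 at P7, with 5 of the 8 DEG and higher. The part of fibroblast RNA in these results was not tested. After Igf2 and Airn, the most abundant paternally expressed locus was that of Snrpn, a small nuclear ribonucleoprotein component, and Snurf, with means of 35.8 ± 5.3 and 27.3 ± 5.3 (SD, n = 4 each; limma adjusted p = 0.319). Cd81, a tetraspanin, had means of 503 ± 97 and 824 ± 111 (limma adjusted p = 0.0996), and Gnas, the stimulatory G protein subunit, 74.1 ± 27.6 and 123 ± 17 (SD, n = 4 each; limma adjusted p = 0.118).

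**Figure D4:**
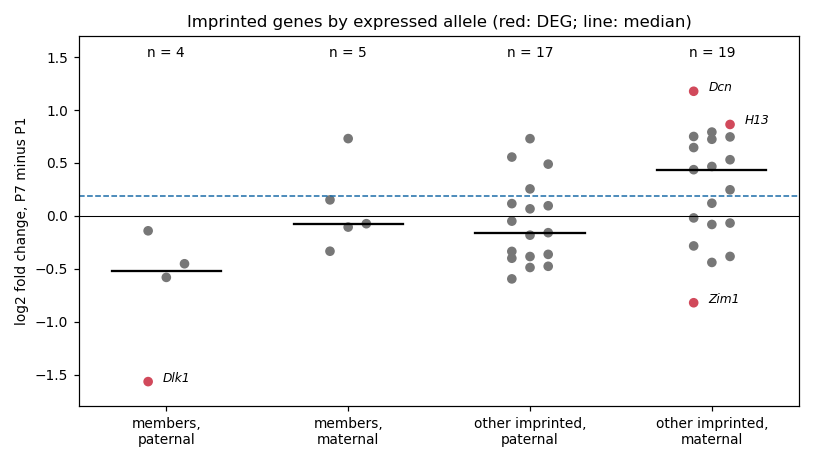
Log2 fold change (P7 minus P1, on log2(FPKM + 1)) of the 9 imprinted growth genes (members) and of 36 other imprinted genes, by the parental allele known to be expressed, for several only in placenta or brain; points are genes, red marks DEG, black lines are medians and the dashed line is the median of annotated loci (0.19). The 4 paternally expressed members lie below 0, and both directions occur in each of the other 3 groups.

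Within a stage, several of the genes deviated together. After the stage means were subtracted, the log2 values over the 8 hearts had Pearson correlations of 0.92 for Grb10 and Igf2r, 0.91 for Peg3 and Meg3, 0.90 for Peg3 and Igf2r and 0.87 for Cdkn1c and Igf2r. Dlk1 went the other way, with -0.88 for the locus over Rian and -0.74 for Igf2r. In P1, replicate 4 was the highest heart for Igf2r, Cdkn1c, Meg3, Peg3, Mest, Grb10 and the locus over Rian and the lowest for Dlk1, Plagl1 and Igf2. These correlations are descriptions over 8 hearts that share library, scaling and cell mixture between genes.

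Over the 8 hearts, the annotated locus whose log2 values were most like those of a gene, of 10397 compared, was Mdn1 for Dlk1 (r = 0.947), Slc1a5 for H19 (0.938), Vps41 for Igf2r (0.989), Pigv for Cdkn1c (0.997), AL670673.1 for Meg3 (0.973) and Slc38a6 for Peg3 (0.977). For Plagl1 it was Angpt1 (0.917), for Mest Mettl6 (0.982), for Grb10 Cdc40 (0.981) and for the locus over Rian Skiv2l2 (0.986). The pattern of Cdkn1c was common, with 936 loci above 0.95, while that of Dlk1, H19 and Plagl1 was matched above 0.95 by 0 loci. Each named locus is the highest of 10397 correlations over only 8 hearts, with the stage difference left in. A value this high can arise by chance, so no link between the genes is drawn from it.

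**Figure D5:**
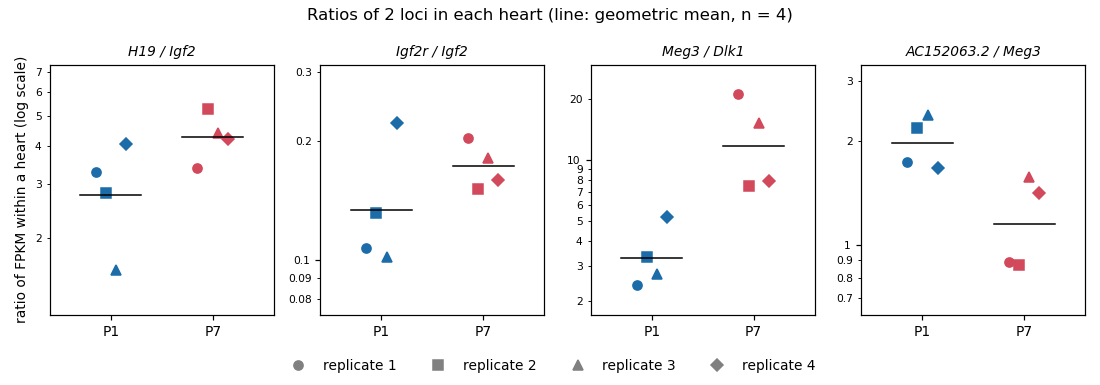
Ratio of the FPKM of 2 loci within each heart (log axes), for P1 (blue) and P7 (red), with the replicate number as the marker and the geometric mean of 4 hearts as a line. Meg3 to Dlk1 is higher and the locus over Rian to Meg3 lower in every P7 heart, while the ratios to Igf2 overlap between stages.

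The tissue label was checked against markers. The summed FPKM of 8 cardiomyocyte markers was 16368 to 30149 at P1 and 25160 to 37078 at P7, and 3 of the 4 skeletal muscle markers found were below 1 FPKM in every heart. RNA of atrial genes was abundant although the atrial appendages had been removed. The 4 atrial markers (Myl7, Myl4, Sln and Nppa) summed to 3900 to 5055 FPKM at P1 and 3898 to 5289 at P7, with 0 DEG. The sum of 6 proliferation markers was 110 to 144 at P1 and 75.8 to 173 at P7, with 0 DEG.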

How the data were processed

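Each of 4 P1 and 4 P7 hearts of male mice gave 1 library. A sequencing service mapped the reads to GRCm38 using Ensembl 70 (the aligner is not given in the sources used here), and the authors deposited FPKM per locus; no counts are in the files, so depth is known only approximately. Fragments behind a value were estimated from the step between low values of FPKM times kilobases (0.0469 to 0.0741 per fragment) and the longest GENCODE M21 transcript.

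The 43172 loci that reached 1 FPKM in any heart were tested on log2(FPKM + 1) with limma 3.58.1 in R 4.3.3 (lmFit, eBayes with trend, no covariates, Benjamini-Hochberg over all tested loci). Ratios within a heart were compared with the exact permutation test over 70 assignments. Tables used Python 3.11.15. The fit was tested on simulated data. The median of a list stands beside that of all annotated loci, with no test of the list.

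The genes and lists were chosen with earlier results of these data known. Named were the 10 genes, those at domain ends and in ratios, called imprinted genes and the 3 most abundant of each parental class, the most similar locus of each gene, and markers; the other genes and loci named were chosen after their values were seen. Alternatives were other pseudocounts, filters, scalings, weights, a replicate block, GC correction and leaving out hearts. GC correction changed only loci with a GC value, which 85.9% of the tested annotated loci had. Starts in the text count from 1. The labels do not say whether the mice shared litters, so p-values measure the spread between these hearts.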

Additional observations from a re-analysis of the deposited data

Results flagged for a closer look

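A heart was marked when it lay so far from the other 3 of its stage that this distance, divided by the range of the 4, passed Dixon's 95% critical value. Of 36 groups tested, 1 was marked, and chance gives about 1 in 20, or 1.8 groups. In P7, replicate 1 was far from the other hearts for Zim1 (gap share 0.849), with FPKM of 3.10 against 1.83 to 2.03. The same heart was also the highest P7 heart for Peg3 and Meg3.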

How the results depend on the processing

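The number of the 9 genes called was 2 with a minimum of 1 FPKM in every heart, with median-ratio scaling, with quantile normalization, with sample quality weights and with the locus over Rian counted in, 0 with no filter on low values, 0 without P1 replicates 1 and 3, and 1 to 2 with a heart left out. The alternatives with the locus over Rian, without those P1 replicates and for the Dlk1-Dio3 loci were chosen after seeing the data. Dlk1 was lost with no filter (limma adjusted p = 0.0515) and without those 2 hearts. For other imprinted genes called, the filter on every heart gave 8, median-ratio scaling 7, quantile normalization 8, sample quality weights 7, no filter 0, leaving out P1 replicates 1 and 3 gave 0, and leaving out any single heart 0 to 7, against 3. The loci called between Dlk1 and Dio3 numbered 3 with GC correction, 1 with eBayes without trend, 11 with median-ratio scaling, 0 with no filter, 0 without P1 replicates 1 and 3, and 1 to 7 with a heart left out. Annotated loci called numbered 1462, and 2573 with the filter on every heart, 404 with GC correction, 37 without the 2 P1 hearts, 941 without trend, 231 with no filter, 2951 with weights and 167 to 2835 with a heart left out; 95.1% of them were higher in P7, and 69.1% with median-ratio scaling.

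The log2 fold change of H19 reversed with GC correction (-0.18), median-ratio scaling (-0.093) and without P1 replicates 1 and 3 (-0.0044); with a heart left out it was -0.11 to 0.31, that of Igf2r -0.23 to 0.042 and that of Meg3 -0.21 to 0.0703. With a heart left out the log2 ratios were 0.35 to 0.82 for H19 to Igf2, 0.24 to 0.62 for Igf2r to Igf2, 1.56 to 2.07 for Meg3 to Dlk1 and -0.94 to -0.66 for the locus over Rian to Meg3. The causes were not tested.

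Hearts with the same replicate number did not deviate together (correlations of -0.0188, 0.122, -0.102 and -0.0270). The labels do not say whether the numbers pair the hearts, and these correlations cannot decide it. With the replicate block, 1 of the 9 genes, 1 other imprinted gene, 2 loci between Dlk1 and Dio3 and 1052 annotated loci were called. The files hold no counts, so what depth limits could only be estimated for the 9 genes and the locus over Rian.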
